A study of Homo sapiens with 2 samples.

Results

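Small nucleolar RNA (snoRNA) host genes are transcription units whose introns hold snoRNAs. The 7 host genes described here are GAS5, SNHG1, SNHG3, SNHG12, SNHG5, ZFAS1 and DANCR, all long noncoding RNA genes. Their sites in SOX2 PAR-CLIP lists were chosen by position: every listed site that overlapped a given interval of the human build hg19 on the strand of the gene. This gave 88 sites of the 72794 in both lists, 19 of 16964 in replicate 1 and 69 of 55830 in replicate 2. The genes and intervals were chosen with earlier results of these data known, so the comparisons with the lists below are descriptions, not tests.

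Host genes of this kind are transcribed by RNA polymerase II and spliced. The snoRNA is trimmed out of the debranched intron, and the spliced exons are exported or decayed, often by nonsense-mediated decay during translation. Box C/D snoRNAs (SNORD) guide ribose methylation and box H/ACA snoRNAs (SNORA) guide pseudouridylation, mostly of ribosomal RNA. Many host genes are 5′ terminal oligopyrimidine genes, the class that also holds the ribosomal protein genes and whose transcripts begin with a run of C and T.

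PAR-CLIP lists the RNA positions that were crosslinked to a protein by long-wave ultraviolet light after cells took up a photoreactive uridine. Both libraries belong to 1 group: HEK293T cells, a human embryonic kidney line with the SV40 large T antigen, transfected with a plasmid for FLAG-tagged SOX2, fed 0.2 mM 4-thiouridine for 16 hours from 24 hours after transfection, irradiated at 365 nm and taken through FLAG immunoprecipitation. SOX2, which binds DNA through its HMG box and is used to reprogram cells to pluripotency, was expressed here from a plasmid, so the sites are those of a tagged, transfected protein. The labels call the 2 experiments independent. No library without SOX2 or of input RNA is used here, so neither background crosslinking nor the amount of each host RNA was measured, and nothing below separates binding from abundance.

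Each site has a deposited score, a whole number of at least 5. No source used here says what it counts, so read depth is unknown and scores are compared mainly with the rest of the same list. Score sums and scores of pairs set side by side between the lists are unscaled unless stated, so their fold differences depend on scaling. The scores of all sites summed to 5365592 in replicate 1 and 5192778 in replicate 2, although replicate 2 listed 3.29-fold more sites. Outside the 10 strongest sites of each list, the sum was 1.57-fold higher in replicate 2.

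In RefSeq each of the 7 symbols is a long noncoding RNA gene that spans at least 1 snoRNA gene, 31 in all, of which 24 are box C/D and 7 are box H/ACA. GAS5 spans 11 snoRNA genes, SNHG1 8, SNHG12 4, ZFAS1 3, SNHG3 and SNHG5 2 each, and DANCR 1, SNORA26. The strands used match those of the genes in GENCODE. The intervals are wider than the RefSeq genes for 6 of the 7 genes. For GAS5 the RefSeq gene measures 5145 nt against an interval of 5001 nt. The available annotation is of another build (GRCh38), so whether a site lay in an exon, an intron or a snoRNA was not determined.

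The start sites of the genes are shown because the oligopyrimidine start is a feature for which this family is known and which was not used to choose it. Each line gives the 10 bases before and the 20 bases from the RefSeq start (RefSeq, GRCh38.p14), 5′ to 3′ on the strand of the gene. Capitals mark the longest run of at least 5 C or T bases, searched on that strand only.
GAS5: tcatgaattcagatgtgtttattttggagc
SNHG1: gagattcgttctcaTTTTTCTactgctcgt
SNHG3: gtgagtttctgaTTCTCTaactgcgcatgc
SNHG12: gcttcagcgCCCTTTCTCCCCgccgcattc
SNHG5: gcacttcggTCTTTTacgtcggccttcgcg
ZFAS1: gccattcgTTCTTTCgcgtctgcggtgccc
DANCR: tgcgcgccccgcccttgcccagagTCTTCC
A run of at least 5 bases that covered the start base itself was present in 4 of the 7 windows, those of SNHG1 (by a shorter run before the one in capitals), SNHG12, SNHG5 and ZFAS1, and in 9.60% of the 35116 start windows in the table. Anywhere in the window, such a run was present in 6 of the 7, against 48.9% of all windows. The longest run, in capitals, began at base 3 in SNHG3 and at base 15 in DANCR, counted from the start. Both windows also held a shorter run of 5 bases nearer the start. GAS5 had none at its RefSeq start. Only 1 start per gene was read, and the RefSeq gene of GAS5 is longer than its interval. This therefore does not show that GAS5 transcripts lack an oligopyrimidine start. No listed site can be set against these sequences, because the lists are on hg19.

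Sites were found in 6 of the 7 host genes in both lists, and in DANCR in replicate 2 only. SNHG1 and GAS5 carried most of the signal: together 12 of the 19 sites and 65.3% of the host gene score in replicate 1, and 31 of the 69 sites and 84.8% of the score in replicate 2. The 7 genes together took 0.0689% of the score sum of replicate 1 and 0.364% of that of replicate 2, or 0.217% ± 0.209 (SD, n = 2). Their share of the score was thus 5.29-fold larger in replicate 2, while their number of sites was 3.63-fold larger, close to the 3.29-fold of the whole lists. Of the score outside the 10 strongest sites of each list, they took 0.171% in replicate 1 and 0.557% in replicate 2, a 3.26-fold difference. A single SNHG1 site held 40.0% of the host gene score of replicate 2; without the highest-scoring host gene site of each list the mean share was 0.137%, and without SNHG1 it was 0.0940%.

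**Figure D1:**
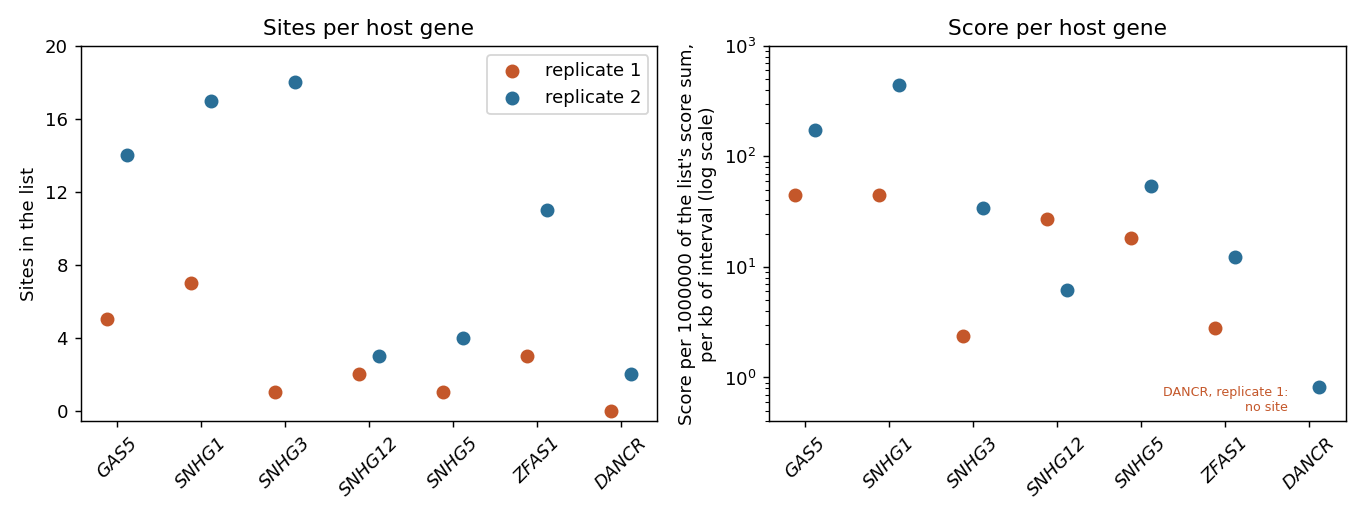
Sites listed per host gene (left, linear axis) and summed site score per 1000000 of the list's score sum and per kb of interval (right, log axis), 1 point per library. Replicate 2 lies above replicate 1 for every gene in the left panel, by the least for SNHG12, and SNHG12 is the gene whose score runs the other way.

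Per kb of interval, the summed score (per 1000000 of the list's score sum) averaged 245 ± 283 for SNHG1, 109 ± 90.4 for GAS5, 36.2 ± 25.5 for SNHG5, 18.3 ± 22.5 for SNHG3, 16.8 ± 15.0 for SNHG12, 7.60 ± 6.77 for ZFAS1 and 0.407 ± 0.575 for DANCR (SD, n = 2). Neighbours in this order did not differ beyond their spread. For ZFAS1 and DANCR the ranges of mean ± SD also overlapped, although the single values did not: 2.81 and 12.4 for ZFAS1, 0 and 0.813 for DANCR. The 0 stands for an interval without a listed site. SNHG1 stood first and DANCR last in each list taken alone. In replicate 1, SNHG1 and GAS5 were almost level, at 45.2 and 44.7, while in replicate 2 they stood at 445 and 173. SNHG12 stood next after these genes in replicate 1, at 27.4, and next above DANCR in replicate 2, at 6.16.

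The map of sites along the genes shows where the sites lay. Distances below run along the RNA, from the upstream edge of each interval to the first base of the site.

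**Figure D2:**
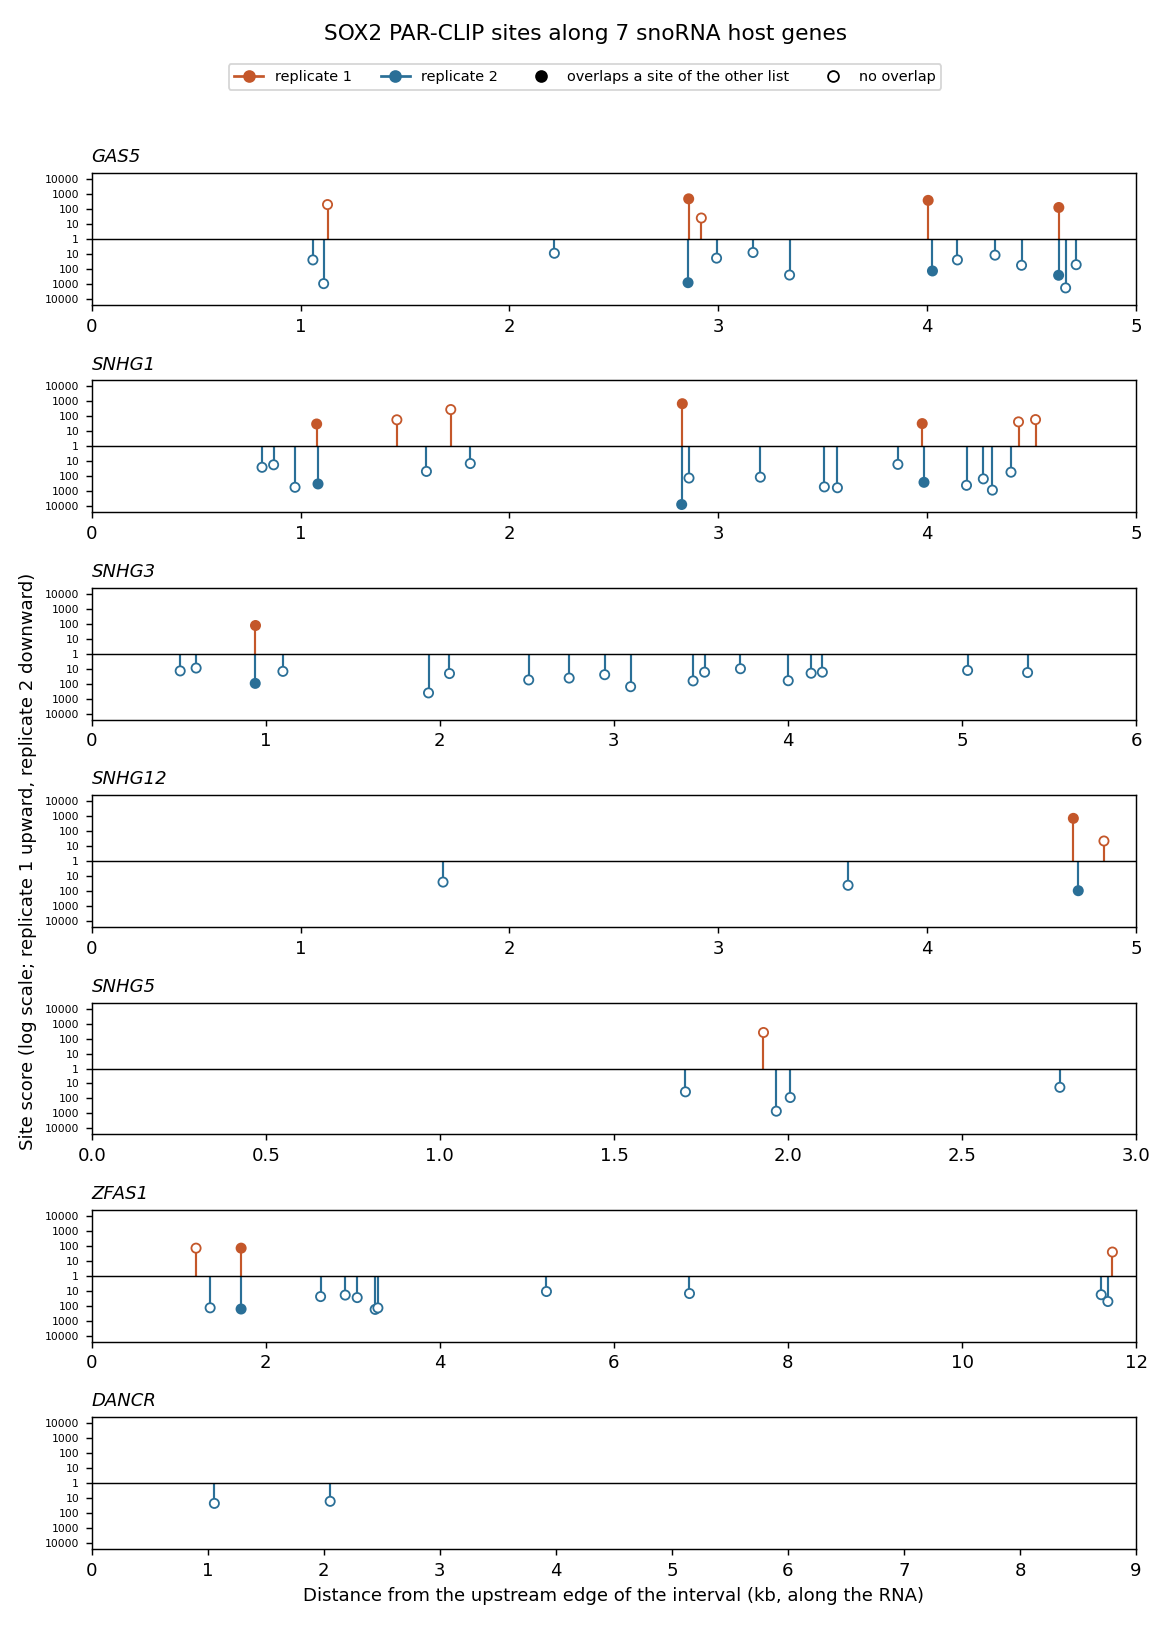
Sites of replicate 1 (upward) and replicate 2 (downward) along each interval, drawn at their midpoints; the x axis is the distance from the upstream edge in kb and the height is the score on a log scale. Filled points overlap a site of the other list by at least 1 nt on the same strand, which 9 sites of each list do, in GAS5, SNHG1, SNHG3, SNHG12 and ZFAS1.

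GAS5 (growth arrest specific 5) accumulates in cells that stop growing, and its spliced RNA is known to bind the glucocorticoid receptor. Its interval was on the minus strand of chromosome 1, from 173833000 to 173838000. Replicate 1 listed 5 sites there, with scores of 25 to 476, and replicate 2 listed 14, with scores of 8 to 1839. The summed scores were 1199 in replicate 1 and 4480 in replicate 2. No site of either list lay in the first 1000 nt of the interval, its upstream end, and the same held for SNHG12, SNHG5, ZFAS1 and DANCR. The edge is the bound of a range in kb, and where the transcript starts within the interval was not determined.

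Of the GAS5 sites, 3 of the 5 in replicate 1 and 3 of the 14 in replicate 2 had a partner. The strongest site of replicate 1, at 173835134 to 173835151, scored 476, and its partner in replicate 2, at 173835136 to 173835155, scored 823. The pair shared 16 nt, and its ends differed by 4 and 2 nt. Toward the downstream end, a replicate 1 site covering 173833358 to 173833383 scored 126, and its partner, at 173833360 to 173833383, scored 264; both began at the same RNA base. Another pair ran the other way: at 173833989 to 173834003 the score was 375 in replicate 1, and the 50 nt site of replicate 2 at 173833951 to 173834000, which shared 12 nt with it, scored 136.

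The strongest GAS5 site of replicate 2 had no partner. It covered 173833331 to 173833345, scored 1839 and ranked 163rd of the list, and it lay 12 nt downstream of the nearest replicate 1 site. The second strongest, at 173836881 to 173836899, scored 956 and missed the replicate 1 site at 173836864 to 173836879, which scored 197, by 1 nt. This neighbouring pair, picked after its values were seen, does not count as overlapping. The remaining unshared sites were the replicate 1 site with a score of 25 and 9 replicate 2 sites with scores of 8 to 255.

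SNHG1 hosts box C/D snoRNAs only in RefSeq (SNORD22 and SNORD25 to SNORD31). Its interval was on the minus strand of chromosome 11, from 62619000 to 62624000. Replicate 1 listed 7 sites, with scores of 31 to 700, and replicate 2 listed 17, with scores of 14 to 7562. The summed scores were 1212 in replicate 1 and 11550 in replicate 2. SNHG1 thus had a score sum 9.53-fold higher in replicate 2.

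The strongest SNHG1 sites of both lists overlapped. The site covered 62621166 to 62621180 in replicate 1, with a score of 700 and rank 371. It covered 62621161 to 62621191 in replicate 2, with a score of 7562 and rank 49. The shorter site lay wholly inside the longer one. The other pairs had the same form. At 62620017 to 62620032, a replicate 1 site with a score of 33 lay inside the 45 nt site of replicate 2 at 62619994 to 62620038, with a score of 251. At 62622917 to 62622930, a replicate 1 site with a score of 31 lay inside the 41 nt site at 62622897 to 62622937, with a score of 322. In these pairs the score was 10.8-fold, 7.61-fold and 10.4-fold higher in replicate 2, and the site was 31 nt against 15 nt, 45 nt against 16 nt and 41 nt against 14 nt. No SNHG1 pair shared at least 50% of both sites.

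SNHG1 sites of replicate 2 were long as a group. Their median length was 30 nt and the longest measured 72 nt, against medians of 15 nt for SNHG1 in replicate 1 and 17 nt for the whole replicate 2 list. Over all 7 genes, 14 of the 69 replicate 2 sites exceeded 30 nt (20.3%), against 2.28% of the rest of that list. Most of these were SNHG1 sites, and none lay in SNHG12 or DANCR, whose longest measured 26 nt and 24 nt. In replicate 1, 1 of the 19 sites did (5.26%), against 0.649%, and it was the 34 nt site of SNHG5. Without the strongest site, the SNHG1 score sum was still 512 in replicate 1 and 3988 in replicate 2. Unshared sites of replicate 2 in SNHG1 included some with high scores: 832 at 62619666 to 62619711, 577 at 62620395 to 62620466 and 538 at 62623012 to 62623042, picked here after their values were seen. The second strongest site of replicate 1, with a score of 285 at 62622275 to 62622288, lay 77 nt from the nearest replicate 2 site and was also picked after its values were seen.

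SNHG3 hosts the box H/ACA snoRNAs SNORA73A and SNORA73B (also called U17), which act in ribosomal RNA cleavage. Its interval was on the plus strand of chromosome 1, from 28832000 to 28838000. In GENCODE the protein-coding gene RCC1 overlaps it on the same strand, so its sites cannot be told apart from those of RCC1 transcripts. Replicate 1 listed 1 site, with a score of 77, and replicate 2 listed 18, the most of any of the 7 genes, with scores of 9 to 410. The summed scores were 77 in replicate 1 and 1068 in replicate 2.

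The replicate 1 site of SNHG3, at 28832928 to 28832943, overlapped the replicate 2 site at 28832932 to 28832946, which scored 95, by 12 nt. It was the pair with the closest scores of the 9. The strongest replicate 2 site, at 28833925 to 28833944 with a score of 410, lay 981 nt from it. Most SNHG3 sites of replicate 2 were weak: their median score was 20.5, near the list median of 19, and they were spread from 497 to 5365 nt along the interval.

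SNHG12 hosts SNORA16A, SNORA44, SNORA61 and SNORD99. Its interval was on the minus strand of chromosome 1, from 28905000 to 28910000. Replicate 1 listed 2 sites, with scores of 712 and 22, and replicate 2 listed 3, with scores of 94, 41 and 25. The summed scores were 734 in replicate 1 and 160 in replicate 2. It was the 1 gene of the 7 with the higher score sum in replicate 1, 4.59-fold that of replicate 2.

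The SNHG12 score rested on a single place near the downstream edge. The replicate 1 site, at 28905289 to 28905313, was the strongest host gene site of that list, with rank 362. The replicate 2 site, at 28905266 to 28905289, scored 94 and shared 1 nt with it, so the pair counts as overlapping only at the least strict overlap. The sites adjoined rather than coincided.

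SNHG5 hosts SNORD50A and SNORD50B. Its interval, the shortest, was on the minus strand of chromosome 6, from 86386000 to 86389000. Replicate 1 listed 1 site, with a score of 292 at 86387056 to 86387089, and replicate 2 listed 4, with scores of 704, 86, 36 and 18. No pair overlapped. The strongest replicate 2 site, at 86387027 to 86387041, lay 14 nt downstream of the replicate 1 site.

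ZFAS1, named as the antisense RNA of the zinc finger gene ZNFX1, hosts SNORD12, SNORD12B and SNORD12C. Its interval was on the plus strand of chromosome 20, from 47894000 to 47906000. Replicate 1 listed 3 sites, with scores of 71, 71 and 39, and replicate 2 listed 11, with scores of 11 to 172. The summed scores were 181 in replicate 1 and 772 in replicate 2. One pair overlapped, with the same start at 47895706: it ended at 47895727 in replicate 1, with a score of 71, and at 47895726 in replicate 2, with a score of 162. This was the closest match in position of the 9 pairs. The strongest replicate 2 site, with a score of 172, lay at 47897250 to 47897263, 1522 nt from the nearest replicate 1 site. The far downstream site of replicate 1, at 47905718 to 47905736 with a score of 39 and likewise picked afterwards, lay 34 nt from a replicate 2 site with a score of 51. No site of either list lay between the replicate 2 site that began at 6858 nt and the one that began at 11583 nt.

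DANCR, whose name stands for differentiation antagonizing noncoding RNA, hosts SNORA26. Its interval was on the plus strand of chromosome 4, from 53578000 to 53587000. Replicate 1 listed no site, and replicate 2 listed 2, at 53579046 to 53579067 with a score of 22 and at 53580043 to 53580066 with a score of 16. The replicate 2 median is 19, so both lay near the middle of that list. Since sites below a score of 5 are absent from the lists, the empty interval of replicate 1 gives no upper limit on DANCR.

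The repeat of a site in the independent experiment is the replicate check that the design offers. Of the host gene sites, 9 of 19 in replicate 1 (47.4%, 95% Wilson interval 27.3 to 68.3) had a partner in replicate 2, against 21.3% of all replicate 1 sites, and 9 of 69 in replicate 2 (13.0%, 7.02 to 23.0) had a partner in replicate 1, against 6.5% of all replicate 2 sites. The overlapping sites held 70.4% of the host gene score in replicate 1 and 51.3% in replicate 2. The intervals cover counting error only, and sites of 1 RNA share their source, so they are narrower than the true uncertainty and no test was made of these shares.

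The excess over the lists depended on how overlap was defined and on score. With at least 50% of both sites required, 4 of 19 replicate 1 sites (21.1%) were shared, against 16.5% of that list, and 4 of 69 replicate 2 sites (5.80%), against 5.02%. With a gap of up to 50 nt allowed, 14 of 19 replicate 1 sites (73.7%) had a partner, against 31.5% of the list, and 16 of 69 replicate 2 sites (23.2%), against 10.7%. Among sites with scores of at least 100, 62.5% (30.6 to 86.3) of the 8 host gene sites of replicate 1 were shared, against 49.1% of the rest of the list, and 29.2% (14.9 to 49.2) of the 24 of replicate 2, against 28.9%. Among lower scores the shares were 36.4% (15.2 to 64.6) against 16.5% in replicate 1 and 4.44% (1.23 to 14.8) against 4.73% in replicate 2. The 10 replicate 1 sites without overlap lay 1 to 146 nt from the nearest replicate 2 site, with a median of 61 nt.

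Host gene sites scored higher than most of their lists. The median score was 71 for host gene sites and 26 for the rest of the list in replicate 1, and 47 and 19 in replicate 2. In replicate 1, 17 of 19 host gene sites reached the list median, against 51.4% of all sites, and 8 reached a score of 100, against 14.8%. In replicate 2, 50 of 69 reached the list median, against 52.1%, and 24 reached 100, against 7.34%. Most sites of at least 100 lay in GAS5 and SNHG1: 4 and 2 of the 8 in replicate 1, and 6 and 11 of the 24 in replicate 2. In replicate 2, SNHG3 had 2 among its 18 sites, and SNHG12 and DANCR had none. Sites of 1 RNA are not independent, and these differences were not tested. At a score of 1000 or more there were 0 host gene sites in replicate 1, where 1.58% of the list lay, and 2 in replicate 2, against 0.491%.

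**Figure D3:**
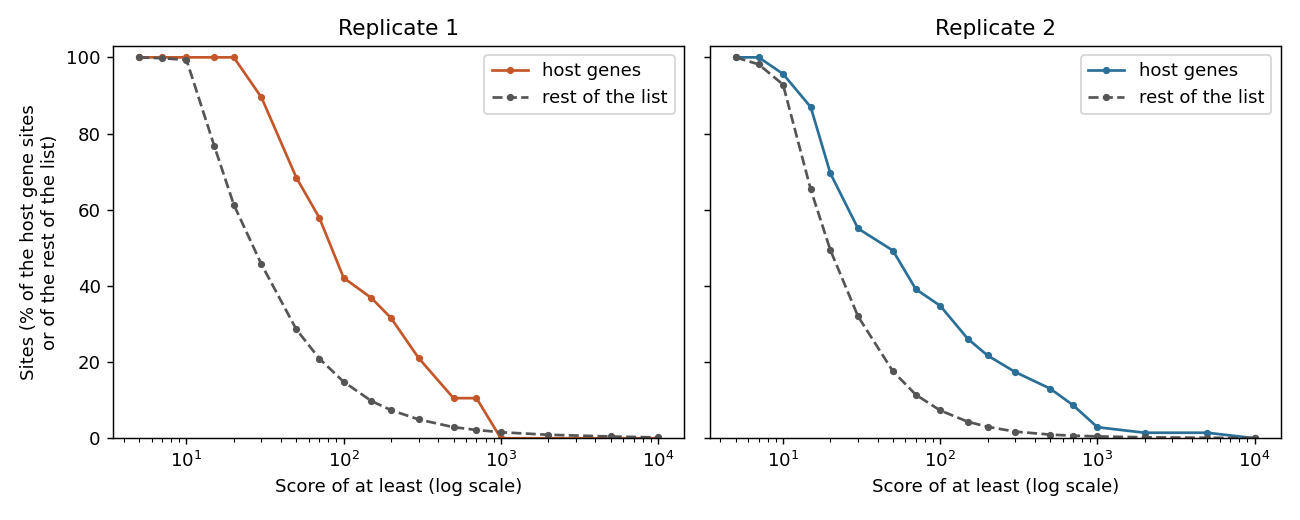
Share of sites (y axis, percent) with at least the score on the x axis (log scale), for host gene sites (solid) and the rest of the list (dashed), in replicate 1 (left, 19 host gene sites) and replicate 2 (right, 69). At a score of 100 the solid lines stand at 42.1% and 34.8% and the dashed lines at 14.8% and 7.30%; the solid line of replicate 1 reaches 0 at a score of 1000.

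Host gene sites also lay close together. Another site of the same list on the same strand stood within 1 kb for 14 of 19 sites in replicate 1 (73.7%, 51.2 to 88.2), against 21.5% of the list, and for 64 of 69 in replicate 2 (92.8%, 84.1 to 96.9), against 53.1%. Since the sites were taken from 7 short intervals, crowding follows from the choice, and close neighbours count each other. The comparison with the lists therefore cannot show that crowding is a trait of these genes. The Wilson intervals are narrower than the true uncertainty. The opposite strand of the 7 intervals held 1 site in replicate 1 and 2 in replicate 2. The stretches of equal width on both sides of the intervals, on the gene strand, held 3 and 4. Stretches elsewhere in the genome were not counted, so these numbers cannot be called low or high. The highest score was 100 on the opposite strand (SNHG1, replicate 2) and 104 beside the intervals (downstream of SNHG12, replicate 1).

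The scores of the overlapping pairs leaned to replicate 2. Of the 9 pairs, 7 scored higher in replicate 2 and 2 in replicate 1, those of SNHG12 (7.57-fold) and the downstream GAS5 pair with the 50 nt partner (2.76-fold). The log2 ratio of replicate 1 over replicate 2 had a median of -1.07 and ranged from -3.43 to 2.92; with scores divided by the list sum outside the 10 strongest sites the median was -0.42. Across all 3621 replicate 1 sites with a partner the unscaled median was 0.21, with 2033 higher in replicate 1 and 1549 higher in replicate 2. It is to be set beside the unscaled -1.07, since the scaling would shift both medians alike. Only the 3 SNHG1 pairs and the SNHG12 pair differed by more than 2 log2 units, in opposite directions. With 1 value per library and site, none of these differences was tested.

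**Figure D4:**
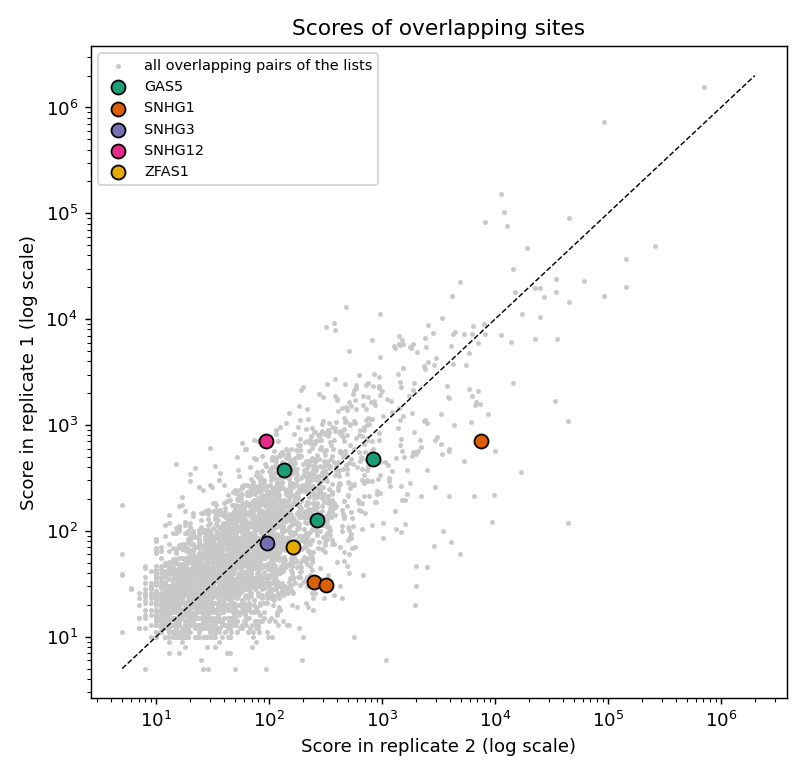
Score in replicate 1 (y axis) against score in replicate 2 (x axis) for overlapping sites, both on log scales, with the 9 host gene pairs in colour and the 3621 replicate 1 sites with their longest-overlap partner in grey; the dashed line marks equal scores. The 3 SNHG1 pairs lie below the line and the SNHG12 pair above it.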

How the data were processed

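PAR-CLIP sites of SOX2 were taken from 2 lists, 1 per library, with 6 columns each. Bowtie 1.1.2, bcl2fastq and the build hg19 appear in the submitters' processing notes. No source used here gives the site caller, its thresholds or the treatment of reads with several matches. The deposited score per site is used as the authors listed it, without rescaling. Depth is unknown, and libraries were read as 50 bp single ends, per the labels' protocols. The largest site end on chromosome 1 (249168105) lies beyond the last GENCODE gene of GRCh38 there (248937043), so GRCh38 coordinates were not joined to the lists and no site sequence was read.

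Sites were assigned to a gene by at least 1 nt inside its interval on its strand, and called shared by at least 1 nt with a site of the other list on the same strand (Python 3.11.15, numpy 2.4.6, pandas 2.3.3). Shares have 95% Wilson intervals (scipy 1.17.1). Positions count from 1. Overlap and assignment were tested on simulated data. With 2 libraries of 1 group, no test between conditions was possible. The genes and intervals were chosen with earlier results of these data known. Named sites are all overlapping pairs and the strongest site of each gene in each list; others are said to be picked later. Alternatives changed the assignment, strand, score threshold, overlap, members and scaling. Other snoRNA host genes were not analysed here, for want of hg19 positions.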

Additional observations from a re-analysis of the deposited data

Results flagged for a closer look

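The host gene comparisons use the gene strand only, and 3 sites lay on the opposite strand of the intervals. In replicate 2, SNHG1's interval held opposite-strand sites with scores of 100 at 62623622 to 62623645 and of 18 at 62623822 to 62623841, both upstream of its most upstream minus-strand site. In replicate 1, SNHG12's interval held 1 with a score of 13 at 28905033 to 28905054, where GENCODE has the gene TRNAU1AP overlapping SNHG12 on the opposite strand. None was shared between the lists.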

How the results depend on the processing

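Counting only sites of at least 100 left 8 host gene sites in replicate 1 and 24 in replicate 2, and leaving out SNHG1, the gene with the highest score, left 12 in replicate 1. The share of host gene sites with a partner moved with the overlap rule: in replicate 1 it was 21.1% with 50% of both sites required and 73.7% with a gap of up to 50 nt, and in replicate 2 it was 5.80% and 23.2%. With replicate 2 limited to as many of its strongest sites as replicate 1 has, it was 23.7% in replicate 2, against 15.1% of all sites so limited. The 46 other values of these results moved by less than their spread, interval or 1.5-fold under the remaining alternatives, among them a wider interval and strand ignored. The mean score share ranged from 0.0689% to 0.364% when either replicate was left out, was 0.364% of the score outside the 10 strongest sites and 0.0940% without SNHG1; with 2 libraries its SD nearly equals its mean, so little would count as a change. Among values of single genes and pairs, 175 stayed within that tolerance, which is wide where the libraries differ, and 16 did not, mostly counts of sites above a score of 100. Of the score ratios of single pairs, that of SNHG3 changed sign, to 0.35 (log2, replicate 1 over replicate 2), when scores were divided by the list sum outside the 10 strongest sites, which lowers replicate 2 by construction. That scaling, the removal of the highest pair and the removal of the highest-scoring site of each list were chosen after seeing the data. No paired analysis was possible because both libraries belong to the same group. Leaving out a replicate leaves no overlap to compute. The planned annotation of sites was not run for want of an hg19 annotation. With unknown depth, its part in the smaller number of sites in replicate 1 was not tested.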

Other observations

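Each site name carries a number that rises along the chromosome and strand, and no source used here says what it numbers. The numbers run to 248010 in replicate 1, of which 16741 (6.75%) occur in the list, and to 235517 in replicate 2, of which 52377 (22.2%) occur. Between the first and last SNHG1 site, 7 of 25 numbers occur in replicate 1 and 10 of 24 in replicate 2. For GAS5 the counts are 5 of 11 in replicate 1 and 12 of 22 in replicate 2. A set of 4 replicate 2 sites of SNHG1, between 62619593 and 62619827, share 1 number.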
